A study of Mus musculus with 9 samples.

Results

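S100 genes encode small calcium-binding proteins, and 10 of them, S100a1, S100a4, S100a6, S100a8, S100a9, S100a10, S100a11, S100a13, S100a14 and S100a16, were followed in a mouse mammary carcinoma line and in both of its chemotherapy-selected derivatives. These members were chosen by name, with earlier results of these data known. All 10 were measured, out of 19938 genes, each through the probe set that carries its symbol alone and has the highest mean over 9 arrays. The untreated parental 4T1 line, MR20 and DR500 were measured with 3 arrays each. MR20 cells were the 4T1 cells that outlived up to 2 weeks in methotrexate, a folate antagonist, given at 20 µg/ml by the labels and at the same figure in ng/ml by the study's text, and that then recovered for 2 weeks without drug. DR500 cells outlived doxorubicin, an anthracycline, raised stepwise to 500 ng/ml over up to 2 weeks by the labels, in which some fields name methotrexate for this line. The study's methods describe a longer course of rising weekly doses that ended at this concentration, and then 2 weeks of recovery without drug. Doxorubicin, which the sample protocol and the study give, is used here. The labels call the arrays of 4T1 and MR20 biological replicates and those of DR500 samples from triplicate wells. Nothing says that a line was selected more than 1 time, so p-values measure the spread between these samples, which may be technical. The labels describe RNA extraction of DR500 apart from that of 4T1 and MR20 and give no array batch, so for DR500 any such batch and the line cannot be told apart.

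An S100 protein has a pair of EF-hands, the loops that hold calcium, and usually works as a dimer that opens a binding surface for target proteins when calcium rises. Inside cells the targets include annexins, non-muscle myosin and enzymes, and some members are also released and act on receptors such as RAGE and Toll-like receptor 4. In mammary carcinoma the family is best known for S100a4, long studied in metastasis, and for the S100a8 and S100a9 pair, which neutrophils carry in large amounts. Most members lie side by side in a single gene cluster on mouse chromosome 3. Values are log2 expression values of single probe sets, so a difference of 1 is a 2-fold change. They are compared between lines for the same gene and not between genes. "Rose" and "fell" stand for an adjusted p under 0.05 in a limma fit of all 9 arrays, with Benjamini-Hochberg adjustment over the 19938 genes. The median of all probe sets of an array lay between 6.24 and 6.38.

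The promoter sequences of 8 of the 10 members were found in the RefSeq table of the GRCm38.p6 build, S100a10 and S100a14 not being among them. Shown are the 250 bases before the start for S100a16, the member with the largest change in MR20 and with 2 annotated starts, for S100a13, and for S100a8 and S100a9. Both strands were searched for TTNNGNAA, a form of the C/EBP site, and TTCNNNGAA, the STAT site. Also searched were TGANTCA, a loose form of the AP-1 site that allows any middle base, and the interferon-stimulated response element. The letters that matched are in capitals. The lines give S100a16 at chr3:90537004-90537253 and at chr3:90540896-90541145, S100a13 at chr3:90514185-90514434 and S100a8 at chr3:90668821-90669070, all on the plus strand, and S100a9 at chr3:90695722-90695971 on the minus strand.
S100a16, upstream start: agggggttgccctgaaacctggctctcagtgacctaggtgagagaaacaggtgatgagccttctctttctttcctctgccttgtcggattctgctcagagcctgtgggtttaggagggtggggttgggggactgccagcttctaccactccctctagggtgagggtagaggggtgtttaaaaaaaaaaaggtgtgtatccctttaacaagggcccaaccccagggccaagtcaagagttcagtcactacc
S100a16, downstream start: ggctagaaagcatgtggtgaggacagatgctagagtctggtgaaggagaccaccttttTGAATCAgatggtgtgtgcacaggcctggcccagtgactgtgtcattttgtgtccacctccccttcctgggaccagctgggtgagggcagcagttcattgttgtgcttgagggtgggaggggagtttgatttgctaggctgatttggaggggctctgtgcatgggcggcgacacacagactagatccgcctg
S100a13: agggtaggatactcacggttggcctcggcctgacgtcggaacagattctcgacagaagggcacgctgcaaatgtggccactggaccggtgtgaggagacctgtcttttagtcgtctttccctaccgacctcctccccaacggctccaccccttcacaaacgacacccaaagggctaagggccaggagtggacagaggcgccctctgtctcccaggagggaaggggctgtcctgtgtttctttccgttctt
S100a8: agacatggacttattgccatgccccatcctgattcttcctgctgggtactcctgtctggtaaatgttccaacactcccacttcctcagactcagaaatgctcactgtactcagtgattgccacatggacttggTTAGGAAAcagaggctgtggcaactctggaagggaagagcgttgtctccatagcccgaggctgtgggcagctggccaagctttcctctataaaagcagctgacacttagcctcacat
S100a9: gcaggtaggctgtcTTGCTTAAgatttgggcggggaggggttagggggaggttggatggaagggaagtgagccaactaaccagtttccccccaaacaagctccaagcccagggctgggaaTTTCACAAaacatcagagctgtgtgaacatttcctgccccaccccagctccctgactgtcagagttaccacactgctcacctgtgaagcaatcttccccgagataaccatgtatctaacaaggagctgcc
S100a8 holds 1 match to TTNNGNAA, 117 to 110 bases before its start, and S100a9 holds 2, at 236 to 229 and 130 to 123 bases. The downstream S100a16 window holds TGAATCA 192 to 186 bases before the start. Its middle base is A, where the AP-1 site has C or G, so it matches only the loose form. S100a11, not shown, holds TGAGTCA at 136 to 130 and at 38 to 32 bases. Among 32841 promoters of the same length, 36.9% held TTNNGNAA, 6.75% TGANTCA, 7.02% TTCNNNGAA and 2.98% the interferon-stimulated response element. The last pair of patterns had 0 matches in the 9 windows of the members. S100a13 and S100a1 start 105 bases apart and are read in opposite directions, so the S100a13 window shown contains the region between both starts.

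In MR20 cells most of the 10 members fell, and these members were chosen with earlier results of these data known. Relative to 4T1, 6 of the 10 fell, S100a1, S100a4, S100a6, S100a13, S100a14 and S100a16, whereas over all genes 17.1% fell. S100a8 and S100a10 rose, and 15.4% of all genes did. The falls of S100a16 and S100a1 passed 2-fold, a size reached by 1.08% of all genes in that direction, and 0 of the 10 rose beyond 2-fold, against 1.41% of all genes. The median change of the members was -0.29 on the log2 scale, and that of all genes was -0.01.

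DR500 cells had a mixed pattern. S100a8, S100a13 and S100a16 rose against 4T1, which is 3 of 10 beside 20.2% of all genes, and S100a1 and S100a6 fell, 2 of 10 beside 21.3%, so the member counts lay close to the background. S100a8 rose beyond 2-fold, as did 2.47% of all genes, and 0 members fell beyond 2-fold, against 3.09% of all genes. The median change of the members was 0.04, and that of all genes was 0.07. Both comparisons use the same 4T1 arrays.

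Set directly against MR20, DR500 had the higher values of 6 members, S100a1, S100a4, S100a8, S100a13, S100a14 and S100a16, while 21.2% of all genes rose. S100a6 and S100a10 fell, and 20.6% of all genes did. S100a16 rose beyond 2-fold, a size that 2.87% of all genes reached, and 0 members fell beyond 2-fold, against 3.23% of all genes. The members' median difference was 0.39, beside 0.07 over all genes.

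**Figure D1:**
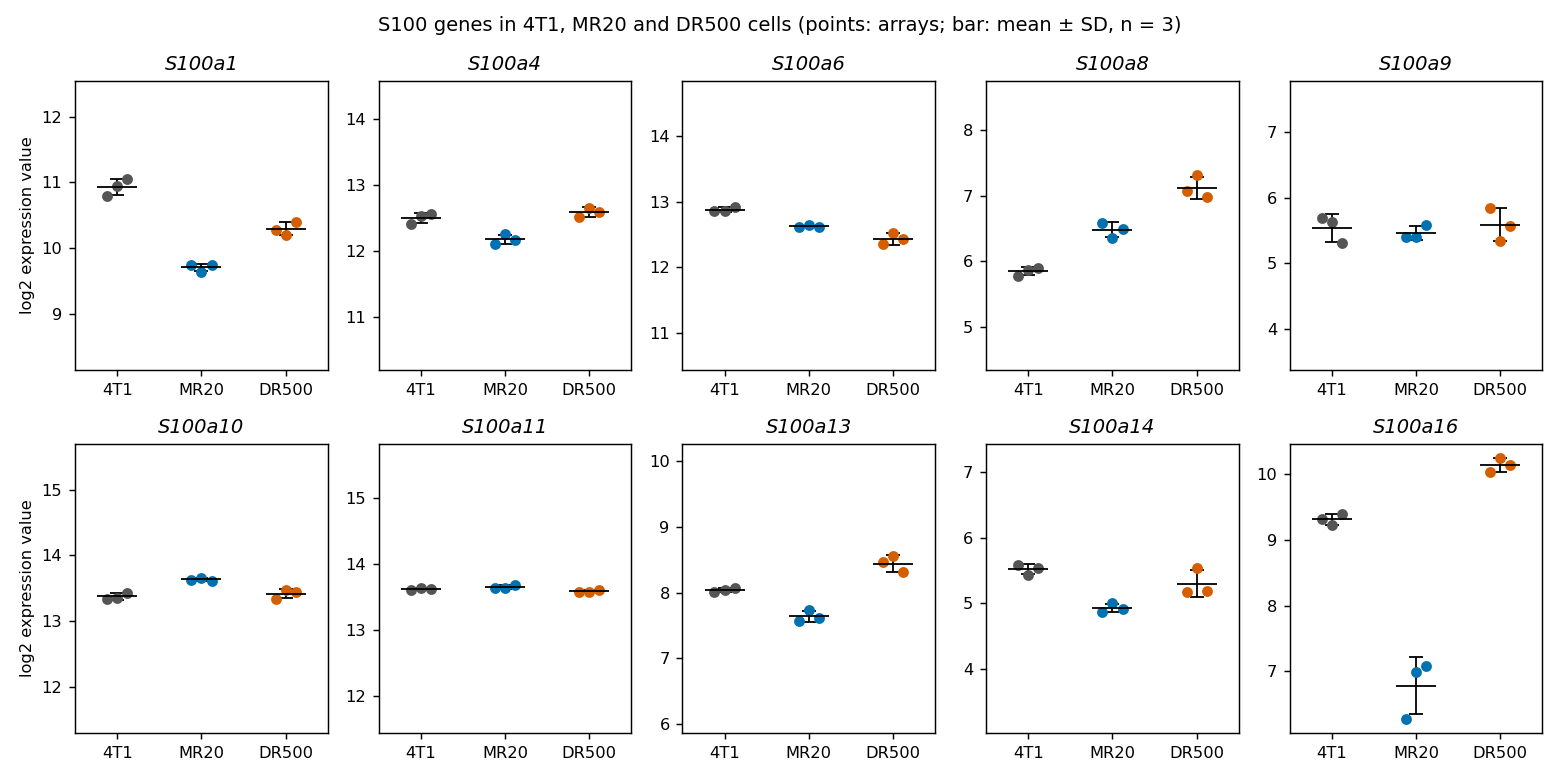
Log2 expression values of the 10 S100 genes on each array (points), with the mean ± SD of the 3 arrays of 4T1, MR20 and DR500, every panel spanning the same height in log2 units. S100a16 runs from 6.28 in MR20 to 10.25 in DR500, while S100a11 stays between 13.58 and 13.69 in all 3 lines.

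S100a16, a member found in many tissues and studied in fat and tumor cells, had the largest change of the members in MR20 and between the selected lines. Its values were 9.31, 9.23 and 9.39 in 4T1, 6.28, 6.99 and 7.08 in MR20, and 10.04, 10.25 and 10.13 in DR500. The lines did not overlap, with MR20 lowest and DR500 highest, and the MR20 arrays were the most spread, with 1 of them below the median of its array. The MR20 mean of 6.78 ± 0.44 (SD, n = 3) lay 5.77-fold under the 4T1 mean of 9.31 ± 0.08, a log2 change of -2.53 (SE 0.17, adjusted p = 2.87e-06). By size, this fall ranked 12 among the decreases of all genes. In DR500, with a mean of 10.14 ± 0.11, S100a16 rose by 0.83 (SE 0.17, adjusted p = 0.00296), a 1.78-fold change. Between both selected lines the gene differed 10.2-fold, by 3.36 on the log2 scale (95% interval 2.97 to 3.75, adjusted p = 1.28e-07).

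S100a1, best known as a regulator of calcium handling in muscle, fell in both selected lines. The 4T1 arrays gave 10.79, 10.95 and 11.04, those of MR20 9.74, 9.64 and 9.74, and those of DR500 10.28, 10.20 and 10.40. Again the lines did not overlap, but here DR500 lay between MR20 and 4T1. The fall was 2.33-fold in MR20 (log2 change -1.22, SE 0.08, adjusted p = 1.74e-06) and 1.55-fold in DR500 (-0.64, SE 0.08, adjusted p = 7.55e-05). DR500 exceeded MR20 by 0.59 (adjusted p = 0.000139).

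S100a13, which takes part in the unconventional release of Fgf1 and interleukin-1 alpha, shares its promoter region with S100a1 and moved in opposite directions in the selected lines. Its values were 8.01, 8.05 and 8.08 in 4T1, 7.57, 7.73 and 7.62 in MR20, and 8.46, 8.56 and 8.31 in DR500, without overlap. It fell by 0.40 in MR20 (SE 0.07, adjusted p = 0.00182) and rose by 0.40 in DR500 (SE 0.07, adjusted p = 0.00131). DR500 was 0.80 above MR20, with a 95% interval of 0.64 to 0.97 (adjusted p = 9.54e-06). S100a1 and S100a13 thus fell together in MR20 and parted in DR500.

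S100a14, a member typical of epithelia, was dim in these cells, with each of the 9 arrays below the array's median. The values were 5.59, 5.43 and 5.53 in 4T1, 4.87, 5.003 and 4.91 in MR20, and 5.17, 5.54 and 5.18 in DR500. MR20 lay under both other lines, while 1 DR500 array stood among those of 4T1 and the other two below them. S100a14 fell by 0.59 in MR20 (SE 0.10, adjusted p = 0.000903). The difference of DR500 from 4T1, -0.22 with a 95% interval of -0.44 to -0.004, did not pass the adjustment (adjusted p = 0.098), and without DR500 replicate 2 it was -0.34 and passed (adjusted p = 0.00433). DR500 exceeded MR20 by 0.37 (adjusted p = 0.0113), which did not pass after a repeated quantile normalization (adjusted p = 0.078).

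S100a4, which binds non-muscle myosin IIA and is studied for its part in metastasis, and S100a6, or calcyclin, were bright in all lines. S100a4 gave 12.41, 12.53 and 12.56 in 4T1, 12.11, 12.25 and 12.16 in MR20, and 12.51, 12.66 and 12.59 in DR500. Its values in MR20 lay below those of both other lines, and those of 4T1 and DR500 overlapped. S100a4 fell by 0.33 in MR20 (SE 0.07, adjusted p = 0.00367), a 1.25-fold decrease. In DR500 it differed from 4T1 by 0.09 (95% interval -0.06 to 0.24, adjusted p = 0.325), and DR500 was 0.41 above MR20 (adjusted p = 0.00057).

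S100a6 decreased in both selected lines, from 12.85, 12.85 and 12.92 in 4T1 to 12.62, 12.64 and 12.62 in MR20 and to 12.35, 12.53 and 12.43 in DR500. The order was 4T1, then MR20, then DR500, with no overlap. The changes were -0.25 in MR20 (SE 0.06, adjusted p = 0.00799) and -0.44 in DR500 (SE 0.06, adjusted p = 0.000146). DR500 lay 0.19 under MR20 (adjusted p = 0.0259), the highest adjusted p among the members' calls. That difference did not pass without any 1 of the 3 MR20 arrays or without DR500 replicate 1 or 3 (adjusted p 0.0508 to 0.0734).

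S100a8 and S100a9 form calprotectin, a secreted heterodimer that binds zinc and manganese and signals through Toll-like receptor 4. S100a8 gave 5.78, 5.86 and 5.90 in 4T1, 6.59, 6.36 and 6.50 in MR20, and 7.07, 7.31 and 6.97 in DR500. They lay below the array medians in 4T1 and above them in both selected lines, and the lines did not overlap. S100a8 rose 1.55-fold in MR20 (log2 change 0.63, SE 0.09, adjusted p = 0.000412) and 2.41-fold in DR500 (1.27, SE 0.09, adjusted p = 1.88e-06). DR500 exceeded MR20 by 0.63 (95% interval 0.43 to 0.84, adjusted p = 0.000268).

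S100a9 did not pass in any comparison. Its arrays gave 5.70, 5.64 and 5.30 in 4T1, 5.40, 5.40 and 5.58 in MR20, and 5.85, 5.35 and 5.57 in DR500, all below the array medians and overlapping between lines. The differences from 4T1 were -0.08 in MR20 (95% interval -0.39 to 0.22, adjusted p = 0.746) and 0.04 in DR500 (-0.26 to 0.34, adjusted p = 0.829), and DR500 differed from MR20 by 0.13 (-0.18 to 0.43, adjusted p = 0.478). The interval for S100a9 in DR500 ended well below the 1.27 of S100a8.

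S100a10, which does not bind calcium and pairs with annexin A2 at the plasma membrane, and S100a11, which pairs with annexin A1, were both bright and changed little. S100a10 gave 13.34, 13.36 and 13.43 in 4T1, 13.63, 13.66 and 13.61 in MR20, and 13.34, 13.47 and 13.45 in DR500. MR20 stood above both other lines, which overlapped. S100a10 rose by 0.26 in MR20 (SE 0.06, adjusted p = 0.00556) and differed by 0.04 in DR500 (95% interval -0.09 to 0.17, adjusted p = 0.588), which was 0.22 below MR20 (adjusted p = 0.0116).

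S100a11 gave 13.61, 13.63 and 13.63 in 4T1, 13.63, 13.65 and 13.69 in MR20, and 13.58, 13.58 and 13.61 in DR500. The lines did not overlap, but their nearest arrays were almost equal. Its differences were the closest to 0 among the members, 0.03 in MR20 (95% interval -0.08 to 0.14) and -0.03 in DR500 (-0.14 to 0.08), and none passed. The second S100a11 probe set gave 0.03 and -0.05. Every other member had a single probe set. On average S100a11 lay above 99.53% of probe sets in 4T1, 99.62% in MR20 and 99.57% in DR500. Whether values so near the top of the range can show a change was not tested.

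**Figure D2:**
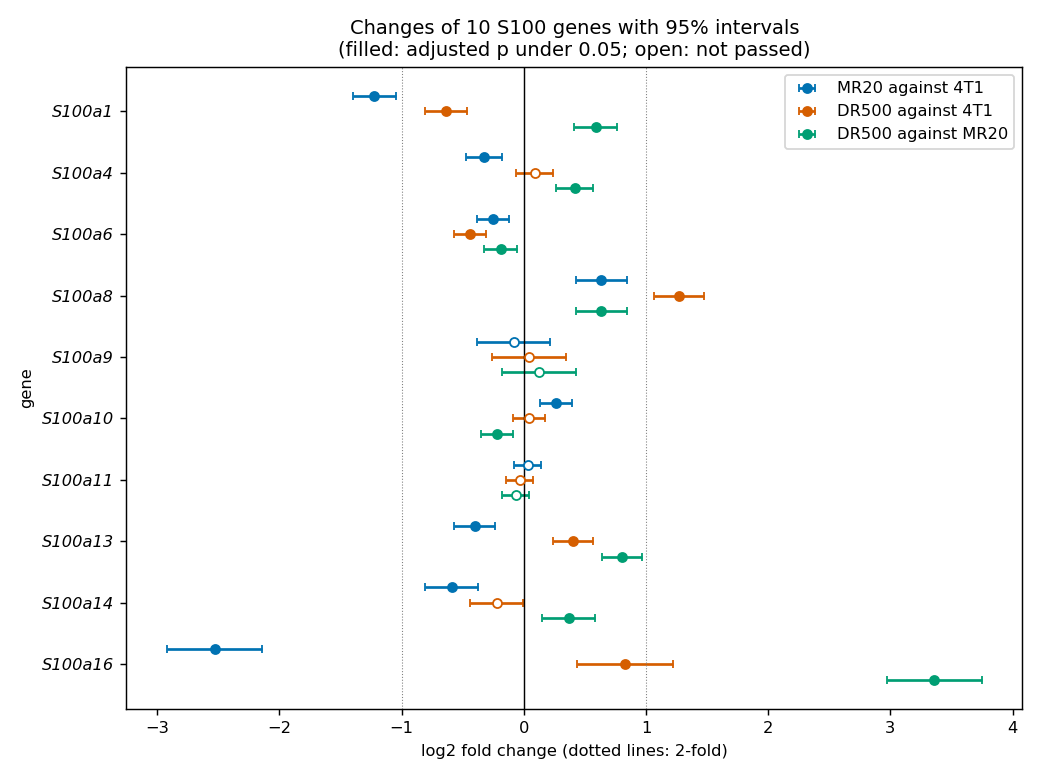
Log2 fold changes of the 10 S100 genes with 95% intervals, the selected lines being set against 4T1 (blue for MR20, orange for DR500) and against each other (green, DR500 over MR20). Filled points passed an adjusted p of 0.05, and S100a16 lies at -2.53, 0.83 and 3.36, the widest span of the family.

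Calprotectin genes are usually abundant in neutrophils, so myeloid markers were read beside S100a8. Of 14 neutrophil markers 12 were measured. In MR20 1 of the 12 rose, Ltf (lactoferrin), by 3.71 on the log2 scale, and in DR500 4 rose, Ly6g (2.51), Ltf (0.92), Prtn3 (0.78) and Elane (0.31), with 0 falling in either line by limma, also at an unadjusted p under 0.05. Over all genes 15.4% rose in MR20 and 20.2% in DR500. The median change of the 12 was 0.15 in DR500 and, as -0.00069, close to 0 in MR20. Their summed level, as log2 of the summed linear values, was 8.82 to 8.98 over the 4T1 arrays, 9.93 to 10.05 in MR20 and 9.36 to 9.58 in DR500. It weights bright probe sets most, and in MR20 it followed Ltf, which went from 5.35 to 5.57 in 4T1 to 9.08 to 9.33. S100a9 did not pass in either line, and the granule gene Ngp and the receptor gene Cxcr2 stayed under the array medians in all 9 arrays. So did Elane, although it was called in DR500. In 4T1 every measured neutrophil marker except Cd177 lay below the medians on each array, which leaves little room for a fall.

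Of 10 macrophage and leukocyte markers, Cd53 and Cd68 rose in both lines, by 0.95 and 1.23 in MR20 and by 4.35 and 2.3 in DR500, and the other 8 did not pass. The shares of all genes that rose were 15.4% in MR20 and 20.2% in DR500, so 2 of 10 lay close to the background. The summed level was 9.52 to 9.60 in 4T1, 10.38 to 10.44 in MR20 and 11.47 to 11.62 in DR500. Ptprc (CD45), the common leukocyte antigen, gave at most 5.29 and Itgam (CD11b) at most 5.30 on any array, below the medians of all arrays. These are bulk RNA samples, in which fewer or more cells of a type and less or more RNA per cell cannot be told apart. The part of these marker genes in the S100a8 result was not tested.

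**Figure D3:**
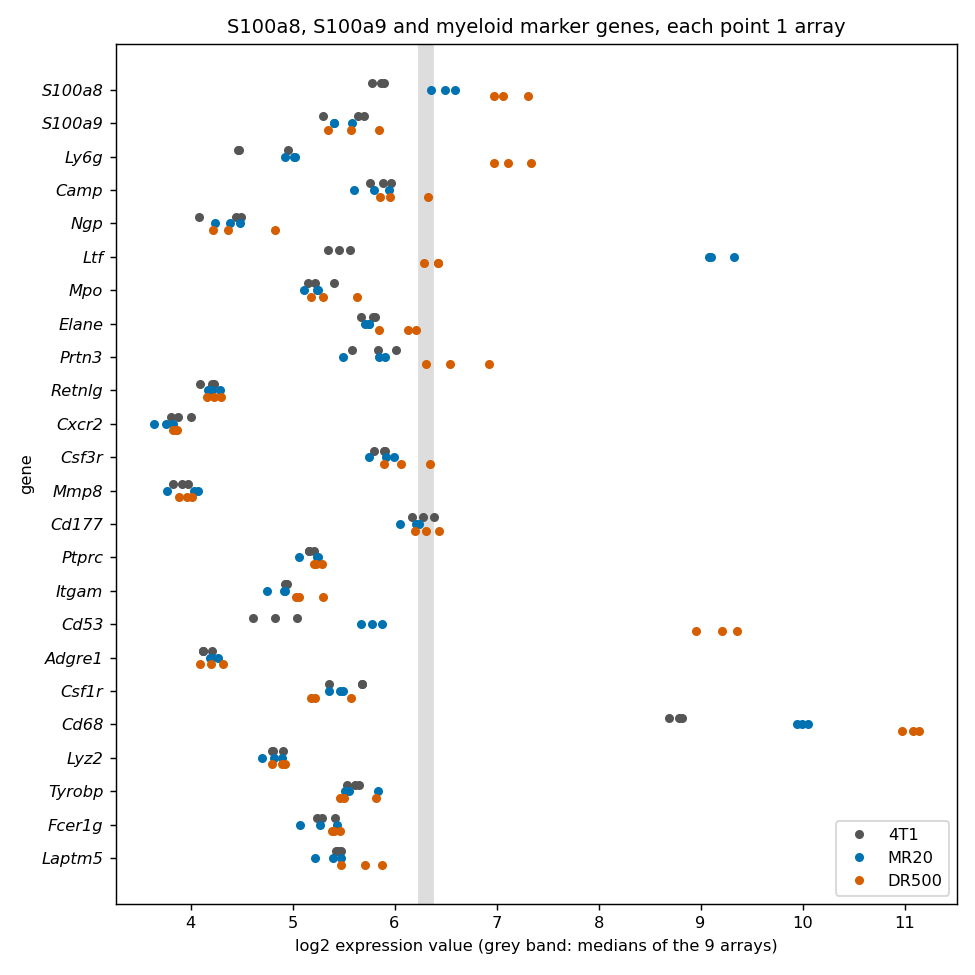
Log2 expression values of S100a8, S100a9, 12 neutrophil markers and 10 macrophage and leukocyte markers, each point being 1 array of 4T1, MR20 or DR500 and the grey band spanning the array medians from 6.24 to 6.38. Ptprc and Itgam stay left of the band on every array, whereas Cd53 reaches 9.35 and Ly6g 7.34 in DR500.

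Epithelial markers, read as a check of the carcinoma label, set DR500 apart. In 4T1 11 of 12 markers lay above the array medians, Krt5 being the exception at 5.36 to 5.66. In MR20 5 rose and Cldn3 fell by limma (3 fell at an unadjusted p under 0.05), beside 15.4% and 17.1% of all genes. In DR500 10 fell, 9 of them beyond 2-fold, with Krt8 (0.03, adjusted p = 0.758) and Krt5 (0.17) not passing. Over all genes 21.3% fell in DR500, and 3.09% fell beyond 2-fold. Epcam, for one, was 10.98 to 11.02 in 4T1 and 6.75 to 6.91 in DR500. The summed level was 15.37 to 15.43 in 4T1, 15.52 to 15.54 in MR20 and 14.12 to 14.25 in DR500. These falls stand beside the DR500 changes of the S100 genes, in which their part was not tested.

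S100a7a was the one gene among the other S100 genes of a fixed list that passed in any comparison. Of 8 on the list, among them S100pbp, which encodes a protein that binds S100P and is no S100 protein, 7 were measured. In MR20 0 of the 7 passed in limma (1 rose and 1 fell at an unadjusted p under 0.05), where 15.4% of all genes rose and 17.1% fell. S100a5, S100b and S100z lay below the array medians on every array, and S100g on those of 4T1 and MR20, which leaves little room for a fall. The members were chosen with earlier results known, so their contrast with this list is no test. In DR500 S100a7a, a psoriasin relative, fell by 0.64 (SE 0.08), from 7.51 to 7.70 in 4T1 to 6.85 to 7.08 in DR500, and by 0.74 against MR20, and the other 6 did not pass. S100a2, outside the list and added for its place in the cluster, did not pass either (0.10 in MR20 and 0.03 in DR500). Of 7 fused S100 genes, which encode large proteins of the skin with an S100 start, 6 were measured, Hrnr, Rptn, Flg2, Tchh, Tchhl1 and Crnn, and 0 passed in limma in any comparison. At an unadjusted p under 0.05, 0 of them rose in MR20, 1 in DR500 and 2 in DR500 against MR20.

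The changes were then read along the chromosome. In the RefSeq order the cluster opens with S100a1, S100a13, S100a14, S100a16, S100a3, S100a2, S100a4, S100a5 and S100a6, followed by S100a7a, S100a8 and S100a9, and ends, past the skin barrier genes, with S100a11 and S100a10. From S100a1 to S100a6 the 6 members all fell in MR20, with S100a3, S100a2 and S100a5 between them at -0.16, 0.10 and 0.16 and not passing. In the same stretch in DR500, S100a1 and S100a6 fell, S100a13 and S100a16 rose, and S100a4 and S100a14 did not pass. S100a8, further along, rose in both lines. Several genes on the outer side of S100a1 also fell in MR20, as given below.

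Neighbouring genes were 48 measured genes inside the cluster and 10 on each side, 68 in all. In MR20 15 rose and 7 fell, where 15.4% and 17.1% of all genes did. The 48 inside genes had 13 rises and 0 falls in MR20 (also 0 falls at an unadjusted p under 0.05). Many of them lay below the array medians on every array, which leaves little room for a fall. Lce1g, among the rises named next, was such a gene, with means of 3.61 in 4T1 and 4.67 in MR20. The S100 genes next to them are S100a9 on one side and S100a11 on the other, neither of which passed. The rises were largest in genes of the cornified envelope, Lce1h (2.42, SE 0.16), Lce1i (1.93), Lce1g (1.05) and Sprr1a (1.01). Lce1h went from 7.12, 7.30 and 6.85 in 4T1 to 9.79, 9.61 and 9.11 in MR20. Lce1 and Sprr genes are near copies of each other whose probes may share transcripts, so which of them changed is uncertain. Chtop, an mRNA export factor gene that adjoins S100a1 on the outer side, fell by 0.58 in MR20 (adjusted p = 8.73e-05) and by 0.44 in DR500 (adjusted p = 0.000316). Beyond Chtop on that side, Snapin (-0.23), Ilf2 (-0.22) and Ints3 (-0.30) also fell in MR20, while Npr1 between them (0.04) did not pass. Of the 20 genes outside the cluster 2 rose and 7 fell in MR20, beside 15.4% and 17.1% of all genes.

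In DR500 9 of the 68 neighbours rose and 7 fell, and inside the cluster 3 rose and 1 fell, lower shares than the 20.2% and 21.3% of all genes. The largest changes lay outside it, in Slc27a3 (-1.04), a fatty acid transporter family gene, in Them4 (-0.77), a thioesterase gene, in Npr1 (0.67), a natriuretic peptide receptor gene, and in Chtop. Without 4T1 replicate 3 the count of rises was 4. Against MR20, DR500 had 7 rises and 10 falls among the neighbours (21.2% and 20.6% over all genes), led by Lce1h (-2.38), Lce1i (-1.79), Slc27a3 (-1.64) and Pglyrp3 (-1.21), which encodes a peptidoglycan recognition protein.

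**Figure D4:**
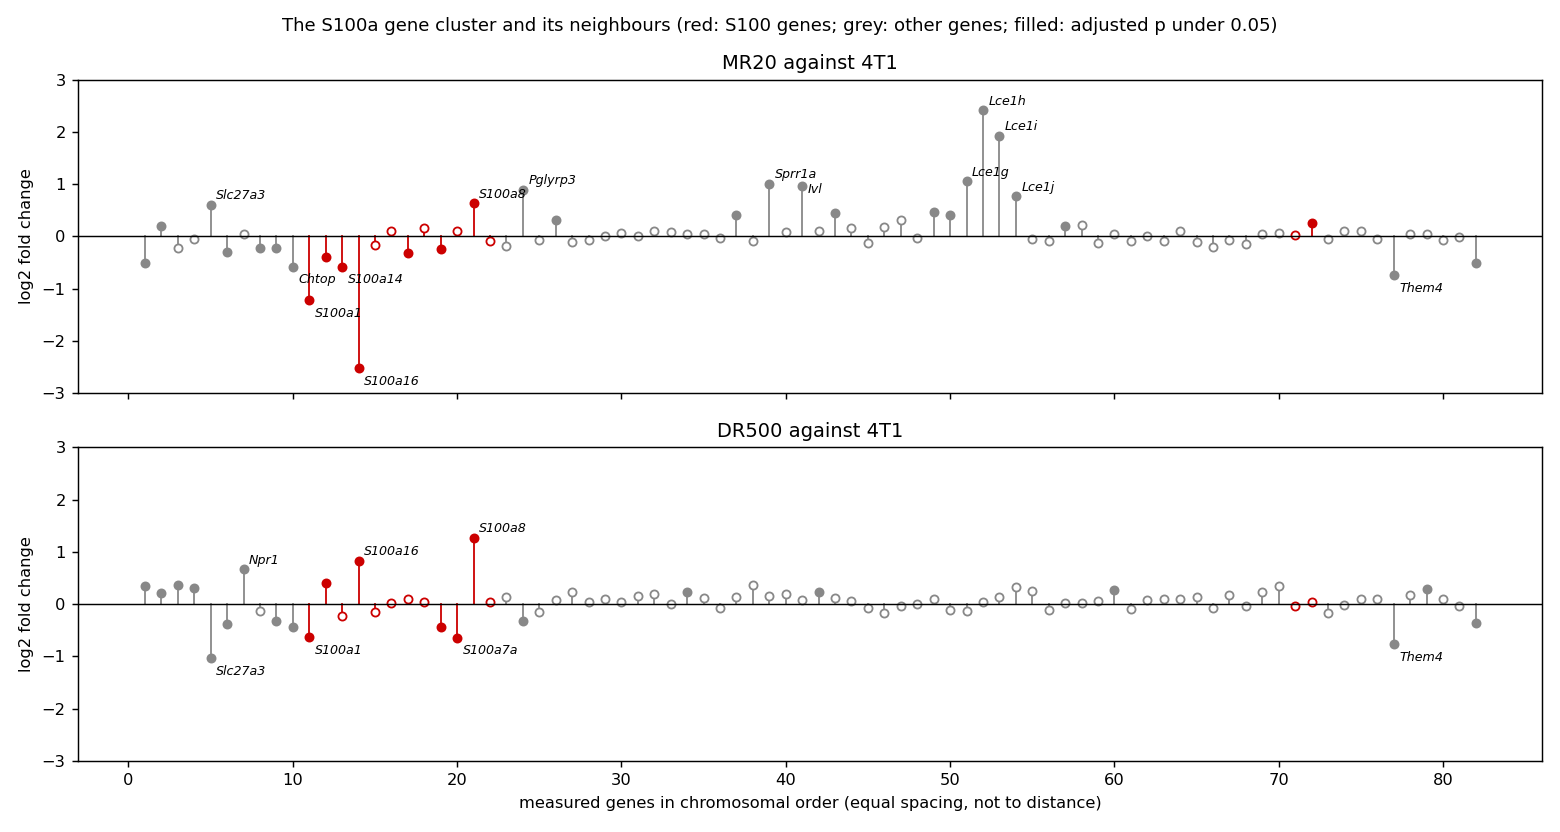
Log2 fold changes of the S100a cluster and its neighbours in chromosomal order with equal spacing, for MR20 and DR500 against 4T1, with S100 genes in red, other genes in grey and filled points for an adjusted p under 0.05. In MR20 S100a16 reaches -2.53 and Lce1h 2.42, and in DR500 S100a8 is the tallest S100 gene at 1.27.

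Binding partners inside the cell and at the membrane were counted from a fixed list of 24, of which 23 were measured. In MR20 10 rose and 3 fell, beside 15.4% and 17.1% of all genes, with a median of 0.02 beside -0.01. In DR500 10 rose and 7 fell, beside 20.2% and 21.3%, with a median of 0.15 beside 0.07. Against MR20, DR500 had 6 rises and 8 falls, beside 21.2% and 20.6%. The partners of S100a10 and S100a11 did not follow one direction. Anxa2, the partner of S100a10, rose in both lines, by 0.33 in MR20 and 0.23 in DR500, and in MR20 both genes of that complex rose. Anxa1, the partner of S100a11, fell by 0.87 in DR500 (SE 0.06), where its arrays gave 11.46 to 11.68 against 12.43 to 12.48 in 4T1, and differed by -0.08 in MR20 (adjusted p = 0.458). Ahnak, a giant scaffold protein gene whose product binds the S100a10 and annexin A2 complex, fell by 0.67 in DR500 and differed by 0.03 in MR20 (adjusted p = 0.867).

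S100a10 also serves as a docking site for plasminogen and its activator. Plat, tissue plasminogen activator, rose by 1.41 in DR500 (SE 0.10) and fell by 0.39 in MR20. Plau, urokinase, rose in both lines, by 0.33 in MR20 (adjusted p = 0.00209) and 0.23 in DR500 (adjusted p = 0.0115). Plgrkt, a plasminogen receptor gene, fell by 1.21 in DR500 (SE 0.10) and by 0.51 in MR20.

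Among the partners of S100a4, S100a6 and S100a1, Myh9, the heavy chain of non-muscle myosin IIA, rose by 0.74 in MR20, where S100a4 fell, and by 0.56 in DR500. Myh10, the IIB heavy chain, rose by 0.50 in MR20 and fell by 0.68 in DR500. Cacybp, the calcyclin-binding protein gene, fell with S100a6 in DR500, by 0.35, and differed by -0.03 in MR20 (adjusted p = 0.843). Anxa11, another S100a6 partner, rose by 0.34 in DR500 and differed by -0.02 in MR20 (adjusted p = 0.88). Anxa6, a membrane-binding annexin gene, rose by 1.23 in MR20 (SE 0.07), where its arrays gave 11.84 to 11.90, and in DR500 differed from 4T1 by 0.07 (adjusted p = 0.435). Pgm1, a phosphoglucomutase gene whose product binds S100a1, rose by 1.34 in DR500 (SE 0.07).

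Il1a, one of the cargoes released with S100a13, had the largest change of the partner list in DR500. It gave 11.81, 11.87 and 11.79 in 4T1, 12.65, 12.66 and 12.73 in MR20, and 8.26, 8.35 and 8.62 in DR500. Il1a rose by 0.86 in MR20 (SE 0.09, adjusted p = 3.57e-05), where S100a13 fell, and fell by 3.41 in DR500 (SE 0.09, adjusted p = 9.25e-10), where S100a13 rose. The difference between the selected lines was -4.27 on the log2 scale. Fgf1, the other cargo, rose with S100a13 in DR500, by 0.68 (SE 0.08, adjusted p = 4.83e-05), and differed by 0.02 in MR20 (adjusted p = 0.915).

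Receptors and adaptors of released S100 proteins numbered 9, all measured. In MR20 2 rose and 2 fell, beside 15.4% and 17.1% of all genes. In DR500 5 rose and 0 fell (also 0 at an unadjusted p under 0.05), beside 20.2% and 21.3%, and against MR20 4 rose and 1 fell, beside 21.2% and 20.6%. Tlr4, the receptor of calprotectin, fell by 0.48 in MR20 (SE 0.08, adjusted p = 0.000884) and rose by 0.64 in DR500 (SE 0.08, adjusted p = 7.9e-05), and S100a8 rose in both. Its arrays gave 9.79 to 9.98 in 4T1, 9.37 to 9.42 in MR20 and 10.38 to 10.66 in DR500, without overlap. The co-receptor gene Cd14 rose more in MR20 (1.42) than in DR500 (0.67), and the adaptor gene Myd88 more in DR500 (1.12) than in MR20 (0.22). Ager, which encodes RAGE, gave 6.71 to 7.11 over the 9 arrays and did not pass in either line (adjusted p = 0.986 and 0.276), nor did Bsg (CD147), a reported receptor of S100a9. Cd33, another reported receptor of S100a9, rose by 1.04 in DR500 (SE 0.07, adjusted p = 1.66e-06), with arrays at 7.73 to 7.78 against 6.60 to 6.83 in 4T1, and differed by 0.18 in MR20 (adjusted p = 0.106).

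**Figure D5:**
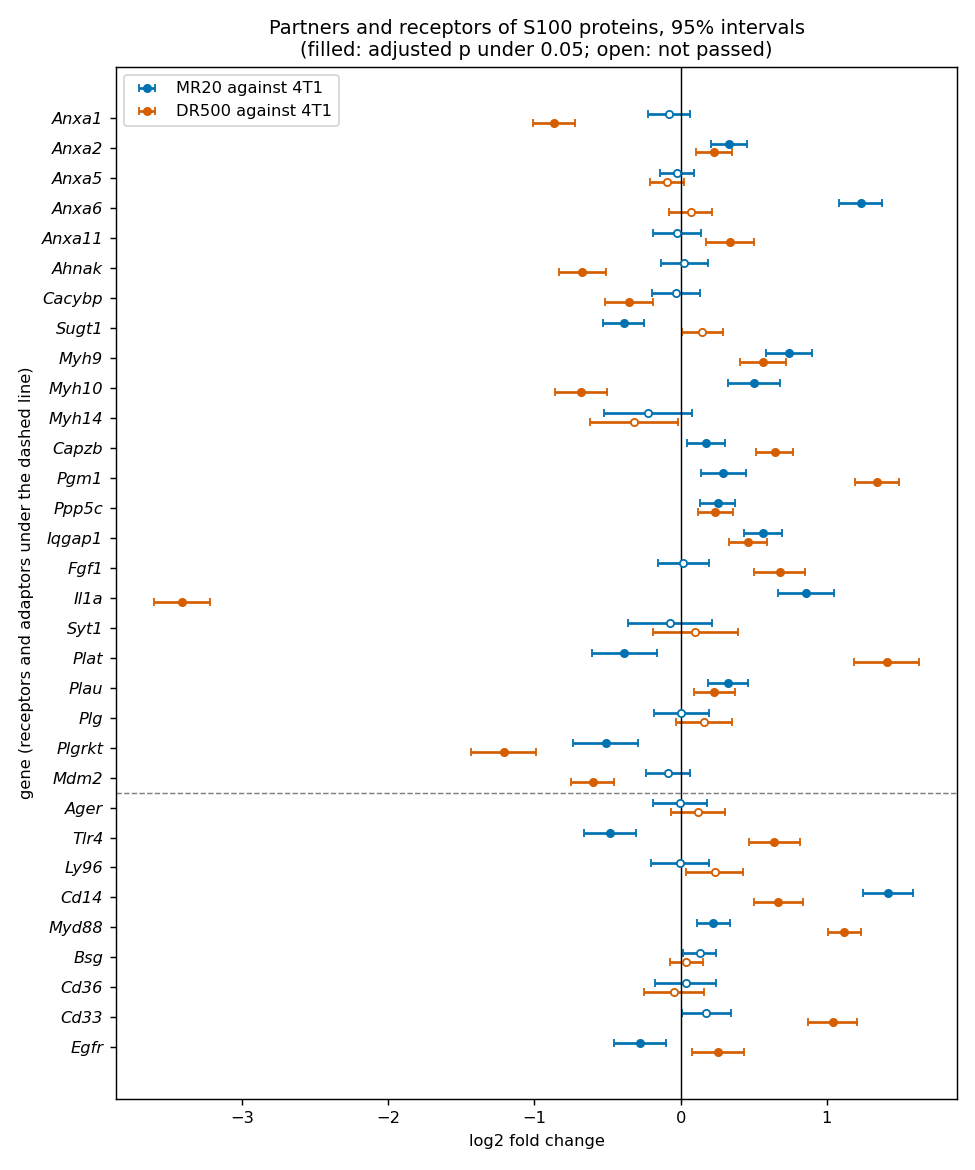
Log2 fold changes with 95% intervals of 23 partners (above the dashed line) and 9 receptors and adaptors (below it) for MR20 and DR500 against 4T1, filled points having an adjusted p under 0.05. Il1a lies at 0.86 in MR20 and at -3.41 in DR500, and Tlr4 at -0.48 and 0.64.

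For the members whose line means spanned over 1 on the log2 scale, the genes with the most similar profile were sought among all genes, by the root mean square difference over 9 arrays after subtraction of each gene's own 4T1 mean. Nearest to S100a16 was Hexa, a lysosomal hexosaminidase subunit gene, at a root mean square difference of 0.23, with changes of -2.77 in MR20 and 0.92 in DR500. Scd1, a fatty acid desaturase gene, and Mxra8 came next, both at 0.28. The profile of S100a1 was closest to those of Borcs7 (0.07), Acsl6 (0.09) and Got1 (0.10), and that of S100a8 to those of Nxpe3 (0.11), Trp53inp1 (0.12) and Klf10 (0.13). These are the closest of all measured genes on the same arrays, and closeness of this kind is a description.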

How the data were processed

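RNA of 4T1, MR20 and DR500 cells was measured on 9 Affymetrix whole-transcript arrays, 3 per line. The deposited values are log2 expression values that the authors made by robust multi-array normalization with the package affy, which corrects background, normalizes quantiles between arrays and summarises probe sets. The versions used by the authors are not given in the sources used here. The annotation paired 21789 of 35556 probe sets with 1 gene symbol, 21698 of them by Entrez identifier. Of genes with several probe sets (999), the brightest was kept, which left 19938 genes. One limma 3.58.1 fit in R 4.3.3 over all arrays gave the changes, with 6 residual degrees of freedom before empirical Bayes moderation and Benjamini-Hochberg adjustment over all genes. The fit was tested on simulated data. The number of arrays limits the precision.

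Members, gene lists and tests were chosen with earlier results of these data known. Named were all members and other S100 genes, the partners best known for a member, the 4 largest called changes of partners or receptors and of neighbours in each comparison, and the 3 genes most like each member whose line means spanned over 1 on the log2 scale. Neighbours were chosen by position. Marker genes and S100a2 were named as context, and Fgf1, Plau and Cd33 after their values were seen. Results were recomputed with a fit restricted to the compared lines, a filter on dim genes that kept 9969, repeated quantile normalization, median centring, an intensity trend, array weights, all probe sets, the mean of a gene's probe sets, a replicate block, and leaving out each array. Protein sequences were not used here.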

Additional observations from a re-analysis of the deposited data

Results flagged for a closer look

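For 2 members the changes from 4T1 ran in opposite directions, every MR20 array lying below and every DR500 array above all 4T1 arrays. Other members also differed between the selected lines, but without opposite called changes. The flag required both changes and their difference to pass, so the p-values given here were part of the choice. The share of all genes that meet this flag was not computed, so whether 2 members exceed the background was not tested. For S100a16 the change in DR500 exceeded that in MR20 by 3.36 on the log2 scale, and for S100a13 by 0.80, and limma gave adjusted p = 1.28e-07 and 9.54e-06 for these differences. Both selected lines are set against the same 4T1 arrays, which cancel in the difference.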

How the results depend on the processing

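The 10 members in 3 comparisons gave 531 values under the alternatives, of which 515 kept the direction and the side of the threshold, 8 lost a call, 2 gained one and 6 turned the sign of an S100a9 difference that was not called. The filter on dim genes keeps 7 of the members and drops S100a8, S100a9 and S100a14, so that 1 member rose in MR20 in place of 2. It also leaves 15 of the 68 neighbours, of which 4 rose in MR20 (15 without the filter) and 3 fell in DR500 against MR20 (10 without it). Members that fell in DR500 against MR20 numbered 1 in place of 2 in the fit of only these lines and with array weights, and 1 to 2 when an array was left out, as S100a6 lost its call (adjusted p 0.0596 in the fit of only these lines and 0.0613 with array weights). Neighbours that rose in DR500 numbered 5 with all probe sets tested and 4 to 11 when an array was left out, in place of 9. The S100a14 difference of DR500 from 4T1 passed after repeated quantile normalization (adjusted p = 0.0411).

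S100a9 in DR500 against 4T1 was -0.0592 after repeated quantile normalization, -0.141 with array weights and -0.0884 to 0.163 when an array was left out. Against MR20 it was -0.0227 with array weights and -0.00396 to 0.247 when an array was left out. Centring and the repeated quantile normalization moved the median of all genes by under 0.1 in each comparison.

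The replicate numbers did not pair the arrays, with correlations across genes of -0.309 to 0.327 between the deviations of same-numbered arrays. A fit with the replicate block changed no call of a member: 2 rose and 6 fell in MR20, 3 and 2 in DR500, and 6 and 2 in DR500 against MR20. Genes below the array medians, S100a9 and S100a14 on every array and S100a8 in 4T1, have the least room above background, and no detection call was used here.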
